A study of Homo sapiens with 12 samples.

Results

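The genes described here are 10 members of the AP-1 and ERK feedback group: FOS, FOSL1, FOSL2, JUN, JUNB, JUND, EGR1, DUSP6, SPRY2 and SPRY4. They were chosen by name, with earlier results of these data known. All 10 were among the 51112 Ensembl gene identifiers of the deposited table. All 10 were also among the 15424 genes that passed a filter on low values (at least 10 normalized counts in at least 3 libraries). The study followed polyadenylated RNA in K-562, an established human chronic myeloid leukemia cell line that carries the BCR-ABL1 fusion, under Si-711, which the series names as inhibiting sirtuins 1 and 2. The groups were untreated cells and cells given 5 µM Si-711 for 8 h, 24 h or 48 h, each with 3 biological replicates, 12 libraries in all. All groups came from the same line in the same serum-supplemented medium. There were neither vehicle libraries nor untreated libraries from 8, 24 or 48 h, so exposure to Si-711 and time in culture cannot be told apart.

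AP-1 is a transcription factor made of pairs of basic leucine zipper proteins. Jun proteins pair with each other or with Fos proteins, whereas Fos proteins need a Jun partner to bind DNA. Signaling through RAS, RAF, MEK and ERK, which BCR-ABL1 drives in chronic myeloid leukemia cells, induces FOS, FOSL1, JUNB and EGR1 within minutes to hours, and JUN is a classic target of the stress kinase JNK. The same pathway induces its own brakes: DUSP6 is a phosphatase that inactivates ERK, and SPRY2 and SPRY4 are Sprouty proteins that restrain signaling between receptors and RAF.

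The libraries held 27070528 to 37117837 normalized counts, and 13755 to 14719 genes per library reached a value of 10. Along the first principal component (46.6% of the variance), 24 h replicate 1 stood nearer to the 48 h libraries than its replicates, at 20.0 against -10.1 and -8.7. Without it, 4 of the 10 genes below passed the test at 24 h against untreated cells (42.7% of all genes tested did), none between 8 h and 24 h (9.27% of all genes) and 6 between 24 h and 48 h (51.7% of all genes). In a list of 14 K-562 genes, among them globins, TFRC and GATA1, all reached 10 in at least 1 library of every group. Their summed level was 377682 to 672959 normalized counts in untreated cells. Under Si-711 it was 96201 to 125610 (8 h), 108662 to 116871 (24 h) and 157335 to 159368 (48 h), with 9, 9 and 10 of the 14 genes lower and 1, 1 and 3 higher at those times. CD33 was among the higher ones at each time and GATA1 at 48 h. Of all tested genes, 15.2%, 24.7% and 33.8% were lower at the 3 times, and 13%, 22.9% and 32.3% were higher. Markers of other cell types moved over the same times. The summed level of 12 monocyte and granulocyte genes was 613 to 1032 in untreated cells, then 3579 to 4809 (8 h), 3708 to 4988 (24 h) and 4282 to 5267 (48 h). The filter left 4 of those 12 genes to test, ITGAM, LYZ, CSF3R and CD68, and all 4 were higher at each time. In each treated group 8 of the 12 stayed below 10 in every library, CD14 among them, which reached 10.2 in 1 untreated library. ELANE and S100A8 were at 0 in all 12 libraries, and MPO was at 0 in all treated ones. The summed level of 12 lymphocyte genes was 185 to 361 in untreated cells, then 721 to 1052 (8 h), 427 to 716 (24 h) and 505 to 622 (48 h), with MS4A1 and CD8A at 0 in all 12 libraries. Of the 5 lymphocyte genes left to test, 4, 2 and 3 were higher at the 3 times and none lower. CD3D and CD3E were among the higher ones at each time. CD79A was higher at 8 h and 48 h and below 10 in every untreated library, so treated libraries carried it past the filter. The summed level of 11 stromal and epithelial genes, of which K-562 cells themselves express several, was 35115 to 44977 in untreated cells, then 36010 to 42149 (8 h), 26543 to 28407 (24 h) and 30320 to 38296 (48 h). The part of these marker changes in the values below was not tested. In bulk RNA, fewer cells that express a gene and less RNA per cell cannot be told apart.

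Promoter sequence was searched for all members that had a window, to show which DNA elements that answer to these pathways lie near their starts. It is printed for members whose levels moved furthest. The RefSeq promoter table (GRCh38.p14) held windows for 9 of the 10 members, 11 windows in all, and had no entry for FOSL1. The windows of 250 bases before the RefSeq start were searched on both strands. The motifs were TGANTCA, the AP-1 site, its 8-base variant TGANNTCA, and TGACG, the core of the cAMP response element. Further motifs were the CArG box, which binds SRF, the MEF2 element and GCGNGGGCG, a pattern for EGR1 sites that allows any base at N. Matches can overlap, since a full cAMP response element also holds TGACG. The printed stretches run 5′ to 3′ along the gene's strand, and capitals mark the matches. They are chr1:58784088-58784117 (minus strand, 30 bases) for JUN, chr5:138465229-138465478 (plus strand, 250 bases) for EGR1, chr14:75278578-75278773 (plus strand, 196 bases) for FOS and chr19:12791236-12791485 (plus strand, 250 bases) for JUNB.
JUN: gggTGACATCAtgggCTATTTTTAGgggtt
EGR1: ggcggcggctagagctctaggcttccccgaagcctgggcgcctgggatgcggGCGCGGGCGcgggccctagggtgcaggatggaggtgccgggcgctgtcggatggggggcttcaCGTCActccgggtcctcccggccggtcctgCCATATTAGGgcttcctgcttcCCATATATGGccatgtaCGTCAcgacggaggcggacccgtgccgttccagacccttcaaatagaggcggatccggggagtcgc
FOS: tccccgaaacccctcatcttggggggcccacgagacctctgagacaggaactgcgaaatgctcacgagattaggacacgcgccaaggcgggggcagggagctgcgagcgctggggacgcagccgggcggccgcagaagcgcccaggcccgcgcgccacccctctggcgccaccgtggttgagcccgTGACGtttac
JUNB: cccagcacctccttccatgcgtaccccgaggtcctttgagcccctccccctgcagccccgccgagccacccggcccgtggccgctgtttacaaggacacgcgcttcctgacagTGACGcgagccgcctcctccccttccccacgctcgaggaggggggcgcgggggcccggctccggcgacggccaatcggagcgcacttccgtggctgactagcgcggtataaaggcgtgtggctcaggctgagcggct

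The JUN stretch holds the 8-base AP-1 variant TGACATCA, 67 to 60 bases before the RefSeq start, beside a MEF2 element, CTATTTTTAG, 55 to 46 bases before it. The stretch lies inside the gene span given below for JUN (58780788 to 58784327, minus strand), downstream of where that span starts. RefSeq and that span thus place the JUN start differently, and which start K-562 cells use was not tested. For JUN only 30 bases around these elements are printed. The FOS stretch stops where the gene span of FOS begins (75278774), and the rest of its window lies inside that span. The JUN window also holds a TGACG outside the printed stretch, 123 to 119 bases before the RefSeq start. Of all 35116 promoter windows in the table, 10.1% hold TGANNTCA and 2.8% hold a MEF2 element. The EGR1 stretch holds 2 CArG boxes, CCATATTAGG and CCATATATGG, an element found in 1.16% of windows. It also holds GCGCGGGCG, a match to the loose pattern GCGNGGGCG (8.41% of windows), and 2 matches to TGACG (21.2% of windows). Within the 250 bases searched, the FOS and JUNB windows each hold 1 TGACG and none of the other motifs. The motifs were not confined to the members that moved furthest. JUND, which changed less, holds TGANNTCA as TGACGTCA and as TGAGCTCA, and also TGACG. SPRY2 and SPRY4 each hold GCGNGGGCG and TGACG. FOSL2, which passed the test in no comparison, holds TGACG. Sites further upstream were not searched for. TGANTCA, found in 6.57% of windows, was in none of the 11 windows of the members. A match is a description of the letters and not a measured binding site.

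JUN, which encodes c-Jun (ENSG00000177606, GRCh38 chromosome 1, 58780788 to 58784327, minus strand), rose steeply at 48 h. Its values were 372, 401 and 313 normalized counts in the 3 untreated libraries and 207, 407 and 379 at 8 h. They were 608, 432 and 567 at 24 h and 3602, 3771 and 3859 at 48 h. The 48 h libraries stood apart from all other libraries, and the 8 h libraries overlapped the untreated ones. The mean at 48 h was 3744 ± 131 (SD, n = 3) against 362 ± 44.6 in untreated cells, 10.3 times as high (log2 fold change 3.37, SE 0.22, limma adjusted p = 2.58e-08). Among all 15424 tested genes, 230 had a higher log2 fold change at 48 h than JUN. At 8 h the log2 fold change of JUN was -0.18 (adjusted p = 0.579) and at 24 h it was 0.56 (adjusted p = 0.0503), which missed the threshold of 0.05. The 24 h value passed in 8 of 22 alternative settings, among them equal library totals (0.74), the compared groups alone (0.56) and without 24 h replicate 2 (0.70). JUN also rose between 8 h and 24 h (0.74, adjusted p = 0.033). That call was lost without 8 h replicate 1 (0.43), 24 h replicate 1 (0.64) or 24 h replicate 3 (0.69), and when the compared groups were fitted alone (0.74, adjusted p = 0.0877). The rise between 24 h and 48 h was 2.82 (adjusted p = 4.51e-07).

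JUNB (ENSG00000171223, chromosome 19, 12791496 to 12793315, plus strand) moved the other way. JunB pairs like c-Jun but is known as a weaker activator that can restrain it. JUNB was at 2850, 3127 and 2586 normalized counts in untreated cells and at 1881, 1893 and 1771 at 8 h. It was at 2019, 1980 and 2117 at 24 h and at 570, 780 and 559 at 48 h. All treated libraries lay below all untreated ones, in a first step at 8 h and a deeper one after 24 h. The log2 fold change was -0.62 at 8 h (SE 0.12, adjusted p = 0.0023), -0.48 at 24 h (adjusted p = 0.00504) and -2.18 at 48 h (adjusted p = 7.56e-09), when the mean was 636 ± 124 against 2854 ± 270 in untreated cells. The 24 h call was lost when libraries were scaled to equal totals (-0.30, adjusted p = 0.0855). JUNB did not pass the test between 8 h and 24 h (0.14, adjusted p = 0.455) and fell between 24 h and 48 h (-1.69, adjusted p = 2.76e-07).

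JUND (ENSG00000130522, chromosome 19, 18279760 to 18281622, minus strand) encodes JunD, the Jun protein known for steady expression in many cells. Its values were 3444, 3284 and 3580 normalized counts in untreated cells and 3637, 4365 and 3529 at 8 h. They were 5147, 4478 and 4508 at 24 h and 3278, 6068 and 5228 at 48 h. The 24 h libraries lay above the untreated ones, while at 48 h replicate 1 lay below them and the other 2 above. JUND passed the test at 24 h (0.45, SE 0.17, adjusted p = 0.0448) and at 48 h (0.45, adjusted p = 0.033) and not at 8 h (0.16, adjusted p = 0.547). The 24 h call was lost without any 1 of the untreated (0.42 to 0.48) or 24 h libraries (0.39 to 0.49) and without 8 h replicate 1 or 3 (0.45), and the 48 h call without any 1 of the untreated libraries (0.42 to 0.48) or 48 h replicate 2 (0.27) or 3 (0.38). The 24 h call was also lost with median centring (0.32) or no filter (0.45), and the 48 h call with equal totals (0.26) or the compared groups alone (0.45).

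**Figure D1:**
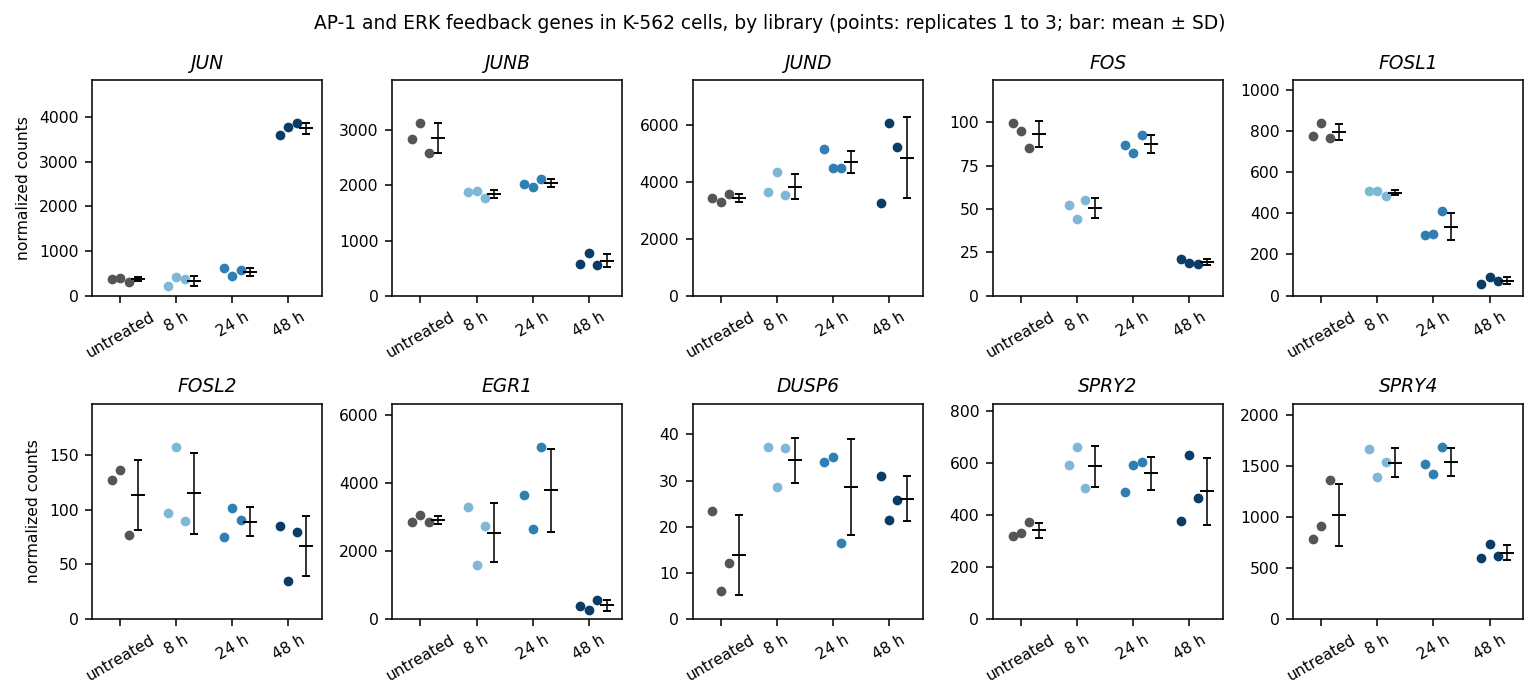
Normalized counts of the 10 genes (vertical axes, linear from 0) in the 12 libraries, with untreated cells and 8, 24 and 48 h of Si-711 along the horizontal axis. Points are replicates 1 to 3 from left to right and bars are the mean ± SD. JUN is high at 48 h in all 3 libraries, and FOS, FOSL1, JUNB and EGR1 are low in all 3.

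FOSL1, which encodes Fra-1 (ENSG00000175592, chromosome 11, 65892049 to 65900573, minus strand), fell at every time. It was at 776, 836 and 766 normalized counts in untreated cells and at 508, 508 and 484 at 8 h. It was at 295, 298 and 412 at 24 h and at 55.9, 91.0 and 68.9 at 48 h. No library of any group overlapped another group. The mean at 48 h was 71.9 ± 17.8 against 793 ± 37.8 in untreated cells (SD, n = 3 each), 11.02-fold lower. The log2 fold change was -0.66 at 8 h (SE 0.19, adjusted p = 0.0184), -1.26 at 24 h (adjusted p = 0.000123) and -3.47 at 48 h (adjusted p = 6.4e-09). At 48 h, 317 of 15424 genes had a lower value than FOSL1. The 8 h call was lost with equal totals (-0.50), without untreated replicate 2 (-0.62) and without 8 h replicate 3 (-0.64). The further fall between 24 h and 48 h was -2.22 (adjusted p = 8.8e-07). The fall between 8 h and 24 h (-0.59, adjusted p = 0.0443) was lost without any 1 of the untreated (-0.59) or 8 h libraries (-0.58 to -0.62), without 24 h replicate 1 (-0.51) or 2 (-0.52), and with equal totals (-0.57) or no filter (-0.59).

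FOS, which encodes c-Fos (ENSG00000170345, chromosome 14, 75278774 to 75282230, plus strand), fell, returned and fell again. It was lowly expressed throughout, at 99.4, 95.1 and 85.0 normalized counts in untreated cells and 52.4, 44.4 and 55.5 at 8 h. It was at 87.1, 82.4 and 92.8 at 24 h and at 21.4, 19.0 and 18.1 at 48 h. The 24 h libraries overlapped the untreated ones, and the 8 h and 48 h libraries lay below them. The log2 fold change was -0.87 at 8 h (SE 0.25, adjusted p = 0.0218), -0.09 at 24 h (adjusted p = 0.798) and -2.20 at 48 h (adjusted p = 4.58e-06). The 8 h call was lost without untreated replicate 1 (-0.82) or 2 (-0.85), without 8 h replicate 2 (-0.78), with equal totals (-0.71) and with no filter (-0.87). FOS rose between 8 h and 24 h (0.78, adjusted p = 0.0496) and fell between 24 h and 48 h (-2.11, adjusted p = 1.46e-05). The rise was held by 6 of 22 alternative settings and was lost without any 1 of the untreated, 8 h or 24 h libraries (0.69 to 0.84).

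FOSL2, which encodes Fra-2 (ENSG00000075426, chromosome 2, 28392448 to 28417312, plus strand), passed the test in no comparison. Its values were 127, 136 and 77.2 normalized counts in untreated cells and 96.8, 157 and 89.8 at 8 h. They were 74.8, 101 and 90.7 at 24 h and 85.4, 35.01 and 79.2 at 48 h. The groups overlapped at every time. The log2 fold change at 48 h was -0.82 (SE 0.37, adjusted p = 0.0631). It passed without untreated replicate 3 (-1.07), without 48 h replicate 1 (-1.05) or 3 (-0.99) and with equal totals (-1.01).

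EGR1 (ENSG00000120738, chromosome 5, 138465490 to 138469315, plus strand) encodes an immediate-early zinc finger factor that SRF and its ERK-activated partners switch on. It was at 2858, 3055 and 2844 normalized counts in untreated cells and at 3291, 1603 and 2731 at 8 h. It was at 3632, 2654 and 5065 at 24 h and at 384.5, 257 and 559 at 48 h. The untreated libraries were close together, the 8 h and 24 h libraries spread on both sides of them, and the 48 h libraries lay far below. The mean was 2542 ± 860 at 8 h and 3784 ± 1213 at 24 h, against 2919 ± 118 in untreated cells (SD, n = 3 each). Neither passed the test (-0.26, adjusted p = 0.558, and 0.32, adjusted p = 0.395). At 48 h the mean was 400 ± 151, 7.29-fold below untreated cells (-2.93, SE 0.30, adjusted p = 1.35e-06), and the fall between 24 h and 48 h was -3.26 (adjusted p = 1.6e-06).

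The feedback inhibitors took other courses. SPRY4 (ENSG00000187678, chromosome 5, 142310427 to 142326455, minus strand) was at 789, 919 and 1368 normalized counts in untreated cells and at 1672, 1392 and 1547 at 8 h. It was at 1520, 1420 and 1692 at 24 h and at 595, 739 and 621 at 48 h. All 8 h and 24 h libraries lay above the untreated ones, and all 48 h libraries lay below them. SPRY4 rose at 8 h (0.62, SE 0.17, adjusted p = 0.0162) and 24 h (0.63, adjusted p = 0.00834), and fell at 48 h (-0.62, adjusted p = 0.00581). The fall between 24 h and 48 h was -1.25 (adjusted p = 4.37e-05). The 8 h call was lost without untreated replicate 1 (0.45) or 2 (0.56) or 8 h replicate 1 (0.56).

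SPRY2 (ENSG00000136158, chromosome 13, 80335976 to 80340951, minus strand) rose and stayed up. It was at 318, 331 and 371 normalized counts in untreated cells and at 591, 661 and 505 at 8 h. It was at 486, 592 and 601 at 24 h and at 377, 628 and 465 at 48 h. All treated libraries lay above all untreated ones, at 48 h by a narrow margin. The log2 fold change was 0.78 at 8 h (SE 0.18, adjusted p = 0.00651), 0.71 at 24 h (adjusted p = 0.00519) and 0.50 at 48 h (adjusted p = 0.026). The 48 h call was lost without untreated replicate 1 (0.45) or 2 (0.48), without 48 h replicate 2 (0.30), with equal totals (0.30) and when the compared groups were fitted alone (0.50). SPRY2 did not pass the test between 24 h and 48 h (-0.22, adjusted p = 0.334).

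DUSP6 (ENSG00000139318, chromosome 12, 89347232 to 89353271, minus strand) was low in every group, at 23.4, 6.14 and 12.1 normalized counts in untreated cells and 37.3, 28.7 and 37.1 at 8 h. It was at 34.1, 35.1 and 16.5 at 24 h and at 31.1, 21.4 and 25.8 at 48 h. The 8 h libraries lay above the untreated ones, and the 24 h and 48 h libraries overlapped them. Of the untreated libraries 2 reached 10, so DUSP6 passed the filter through the treated libraries as well. It passed the test at 8 h (1.42, SE 0.48, adjusted p = 0.0417) and not at 24 h (1.09, adjusted p = 0.0765) or 48 h (1.03, adjusted p = 0.0743). The 8 h call was lost without untreated replicate 2 (0.97) or 3 (1.41), without any 1 of the 8 h libraries (1.35 to 1.54), without 48 h replicate 3 (1.42), with no filter (1.42), with median centring (1.33), with quantile normalization (1.14) and in a fit of the 2 groups alone (1.42). Without untreated replicate 1, DUSP6 passed at 24 h (1.54) and 48 h (1.47), and it passed at 24 h without 24 h replicate 3 (1.43) or with equal totals (1.27).

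At 8 h, 6 of the 10 members passed the test, 3 higher (DUSP6, SPRY2 and SPRY4) and 3 lower (FOS, FOSL1 and JUNB), where 28.2% of all tested genes passed, 13% higher and 15.2% lower. At 24 h, 5 passed, where 47.6% of all genes did. These were 3 higher (SPRY2, SPRY4 and JUND) and 2 lower (FOSL1 and JUNB), beside 22.9% of all genes higher and 24.7% lower. At 48 h, 8 passed, where 66.2% of all genes did. These were 3 higher (JUN, SPRY2 and JUND) and 5 lower (FOSL1, EGR1, FOS, JUNB and SPRY4), beside 32.3% higher and 33.8% lower. Without untreated replicate 2, the members called at 8 h were 2, where 20.3% of all genes were called. DUSP6, counted at 8 h, passed the filter only with treated libraries included, and its call was lost in 10 of the 21 alternative settings that tested it. The median log2 fold change of the members was -0.09, 0.39 and -0.72 at 8, 24 and 48 h, beside -0.01, 0.02 and -0.05 over all genes tested. These 3 comparisons share the untreated libraries. Since the members were chosen with earlier results of these data known, their counts are a description and not an independent test.

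**Figure D2:**
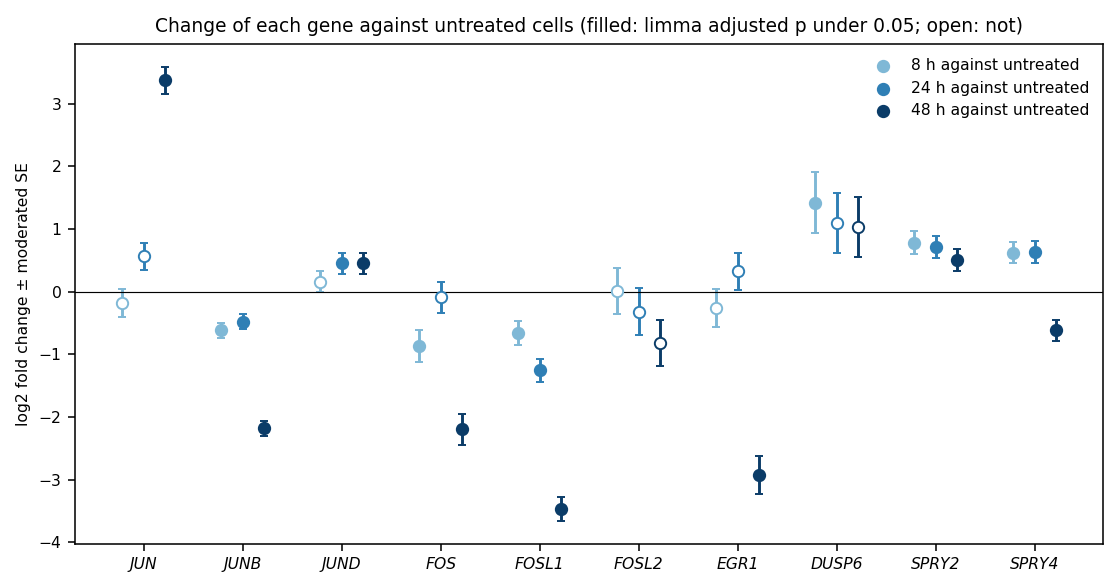
Log2 fold change of each gene against untreated cells (vertical axis) at 8, 24 and 48 h, with the moderated SE from limma as the error bar. Filled points passed an adjusted p of 0.05 and open points did not. JUN stands at 3.37 at 48 h, and FOSL1, EGR1, FOS and JUNB stand between -2.18 and -3.47.

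Between successive times, 3 members passed from 8 h to 24 h (JUN and FOS higher, FOSL1 lower), where 18.1% of all genes passed, 8.31% higher and 9.83% lower. From 24 h to 48 h, 6 passed, JUN higher and FOSL1, EGR1, FOS, JUNB and SPRY4 lower, where 52.2% of all genes passed, 25.1% higher and 27.1% lower. The 6 calls between 24 h and 48 h held in all 22 alternative settings, and each of the 3 between 8 h and 24 h was lost in some. Leaving out 1 library at a time gave 0 to 3 members called between 8 h and 24 h, and 1396 to 3151 of all genes. With equal totals SPRY2 also passed between 24 h and 48 h (-0.59).

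**Figure D3:**
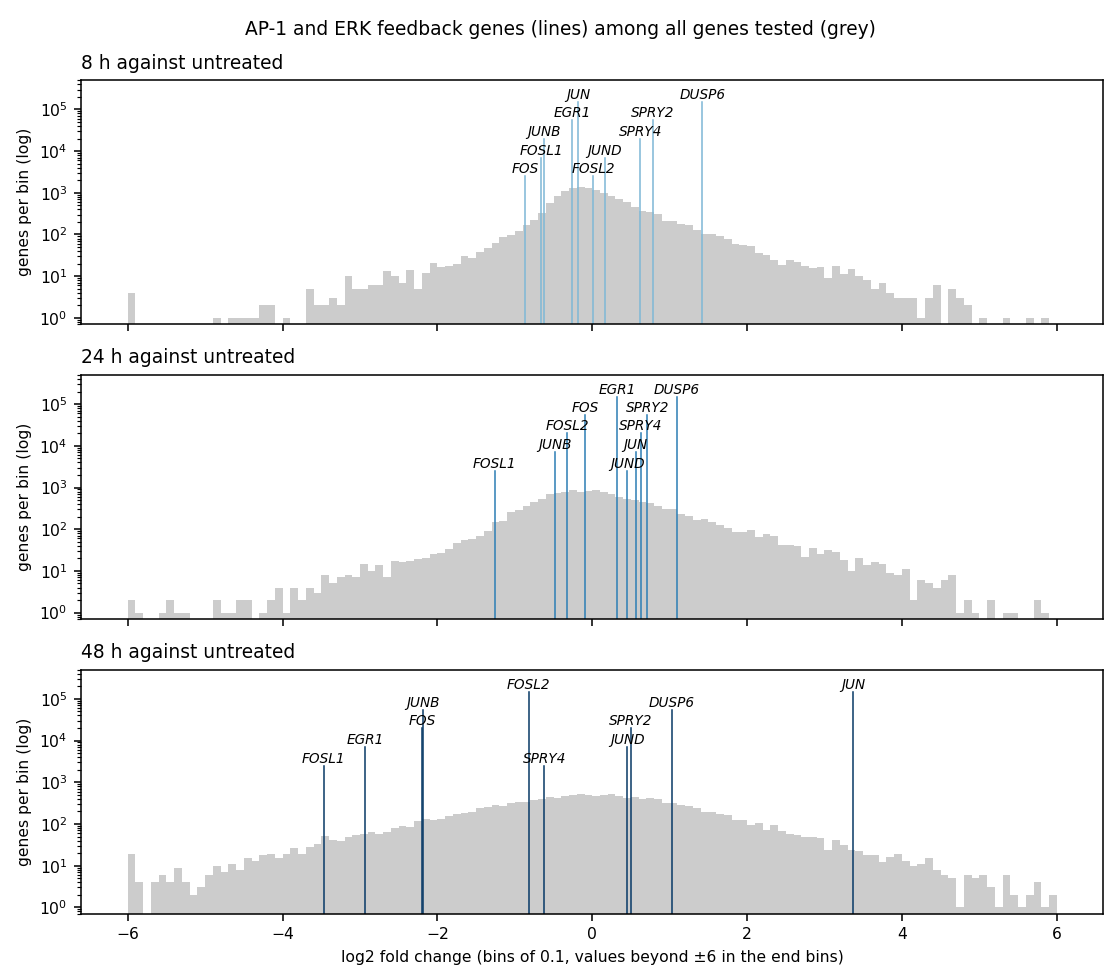
Histograms of the log2 fold change of all 15424 tested genes (grey, bins on the horizontal axis, genes per bin on a log axis) at 8, 24 and 48 h against untreated cells, with a line for each of the 10 genes. At 8 h, 851 genes lie above DUSP6 (1.42) and 750 below FOS (-0.87), and at 24 h, 672 lie below FOSL1 (-1.26). At 48 h JUN (3.37) and FOSL1 (-3.47) lie toward opposite ends.

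The makeup of each family was compared as shares and ratios within libraries, where the scaling of a library cancels. Levels were divided by exonic length from GENCODE release 29. FOSB, the remaining Fos gene, was added for this purpose by name, and it was at 8.52, 20.1 and 23.2 normalized counts at 48 h, against 53.8, 65.9 and 46.6 in untreated cells. JUN made up 1.92 to 3.597% (8 h), 3.38 to 4.28% (24 h) and 22.4 to 32.9% (48 h) of the summed Jun family level, against 2.58 to 3.15% in untreated cells. JUNB made up 29.7 to 33.95% (8 h), 27.4 to 31.1% (24 h) and 7.31 to 10.1% (48 h), against 41.4 to 47.8% in untreated cells. JUND was the most abundant Jun gene per kb in every library, at 56.9 to 68.6% at 48 h against 49.1 to 56.0% in untreated cells. The ratio of JUN to JUNB counts, taken without length, was 6.32, 4.84 and 6.90 at 48 h against 0.131, 0.128 and 0.121 in untreated cells. The JUN share was thus higher, and the JUNB share lower, in all 48 h libraries than in any other library.

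FOSL1 was the leading Fos gene per kb in all 12 libraries. It held 87.2 to 89.5% of the summed Fos family level in untreated cells, then 86.0 to 87.8% (8 h), 77.3 to 81.8% (24 h) and 58.7 to 76.4% (48 h). The share of FOSL2 was 7.96 to 24.3% at 48 h against 2.44 to 3.87% in untreated cells, while its own level did not pass the test. Summed levels, unlike shares and ratios, depend on the deposited scaling. The summed Fos family level per kb was 489 ± 27.2 normalized counts in untreated cells, then 312 ± 10.2 (8 h), 229.6 ± 38.5 (24 h) and 58.6 ± 6.51 (48 h; SD, n = 3 each). The summed Jun family level per kb was 3515 ± 81.6, 3172 ± 285, 3800 ± 221 and 4015 ± 846 at the same times. The ratio of the Jun sum to the Fos sum was 6.93 to 7.38 in untreated libraries, then 9.68 to 10.9 (8 h), 13.7 to 19.7 (24 h) and 59.7 to 73.4 (48 h). Those 4 ranges did not overlap. The ratio sets RNA levels side by side and says nothing of protein or of dimers.

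**Figure D4:**
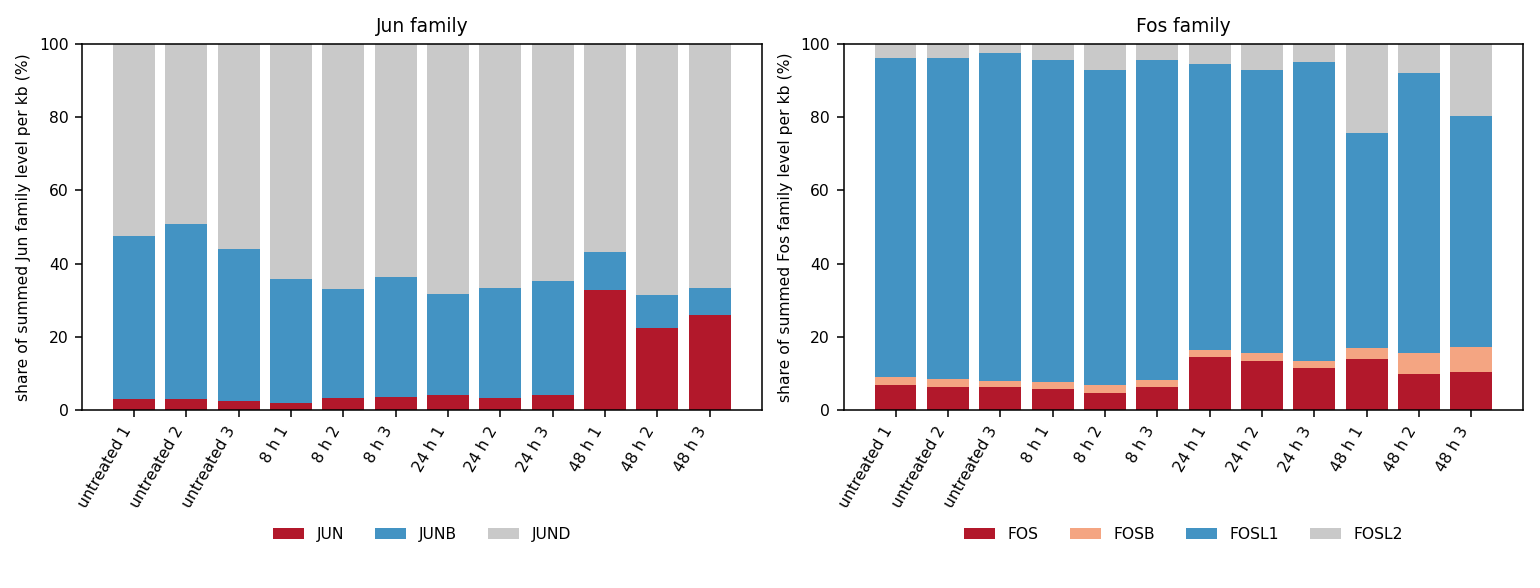
Share of each gene in the summed level per kb of exonic length (vertical axis, %) of the Jun family (left) and the Fos family (right), with 1 bar for each library. JUN holds 22.4 to 32.9% of the Jun family at 48 h, and FOSL1 holds the largest Fos share in every library.

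Between the feedback genes, the ratio of SPRY4 to SPRY2 counts was 1.58, 1.18 and 1.34 at 48 h, against 2.48, 2.78 and 3.69 in untreated cells. It was 2.83, 2.11 and 3.07 at 8 h and 3.13, 2.40 and 2.82 at 24 h, which overlapped the untreated values. Ranked per kb among 15286 tested genes with a length, JUND stood at percentile 92.0 in untreated cells and JUNB at 90.4. EGR1 stood at percentile 84.3 and FOSL1 at 71.1. DUSP6 stood at 7.3. At 48 h JUN stood at percentile 86.2, against 45.9 in untreated cells, and EGR1 at 49.4.

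Genes that surround the members in the pathway were counted in lists. The lists too were chosen with earlier results of these data known, so their counts are a description and not an independent test. Among other immediate-early genes, which answer to growth signals without new protein synthesis, 5 of 27 tested genes rose and 15 fell at 48 h, with a median of -0.70 beside -0.05 over all genes. The shares of all tested genes against which this and the following lists stand were 13% higher and 15.2% lower at 8 h, 22.9% and 24.7% at 24 h, and 32.3% and 33.8% at 48 h. At 8 h, 5 rose and 6 fell, and at 24 h, 4 rose and 8 fell. MYC, the growth regulator, was at 1150 normalized counts at 48 h against 18028 in untreated cells (-3.98, adjusted p = 3.3e-09). ID1, an inhibitor of basic helix-loop-helix factors, was at 31.0 against 555 (-4.14, adjusted p = 2.07e-09). GEM, a small GTPase, rose to 311 at 48 h against 28.7 in untreated cells (3.40, adjusted p = 5.98e-07). CCN1, a matricellular protein gene, passed the test at 48 h alone among the comparisons with untreated cells (-4.51, adjusted p = 0.000425).

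Among other ERK-responsive feedback genes, 7 of 23 rose and 9 fell at 48 h (median 0.20), and at 8 h and 24 h 7 rose while 2 and 3 fell. The list is broader than feedback on ERK, so these counts do not measure it. DUSP10 and CCND1, described below, are counted among those that rose at each time. DUSP8, counted among those that rose at each time, was at 0 in all untreated libraries and passed the filter only through treated ones. DUSP10, a phosphatase that acts on JNK and p38, rose at 8 h (1.03, adjusted p = 0.00129), 24 h (1.75, adjusted p = 7.56e-06) and 48 h (3.56, adjusted p = 4.63e-09), with means of 252 in untreated cells and 512, 867 and 2974 normalized counts at the 3 times. DUSP7, a phosphatase that acts on ERK, fell to 187 at 48 h against 1127 in untreated cells (-2.65, adjusted p = 2.79e-07). CCND1, cyclin D1, rose at all 3 times and reached 1592 at 48 h against 522 in untreated cells (1.70, adjusted p = 3.45e-05). ETV1, an ETS factor, rose at all 3 times as well (1.83 at 48 h, adjusted p = 1.08e-05).

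Among other bZIP partners of Jun and Fos, 6 of 18 rose and 8 fell at 48 h (median 0.02), 5 rose and 1 fell at 8 h, and 5 rose and 5 fell at 24 h. ATF3, a stress-induced repressor that pairs with Jun, rose at 8 h (1.59, adjusted p = 1.89e-05), 24 h (2.10, adjusted p = 7.15e-07) and 48 h (1.70, adjusted p = 3.62e-07). JDP2, a Jun dimerization partner, rose at 8 h (2.07, adjusted p = 0.00108) and 24 h (2.41, adjusted p = 0.00011) and did not pass at 48 h (-0.18, adjusted p = 0.677). ATF2, which pairs with c-Jun on 8-base sites, rose to 3437 at 48 h against 1215 in untreated cells (1.5, adjusted p = 2.41e-08). MAFK, a small Maf protein, fell (-1.87, adjusted p = 7.99e-08).

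Among genes described as AP-1 targets, 11 of 21 rose and 1 fell at 48 h (median 0.73), and 9 rose and 1 fell both at 8 h and at 24 h (medians 0.70 and 0.83). The filter left 21 of 28 listed genes, and where a gene is near 0 without treatment, the treated libraries can by themselves carry it past the filter. PLAU, the urokinase protease, rose at 8 h (3.10, adjusted p = 1.23e-05) and was at 713 normalized counts at 48 h against 43.8 in untreated cells (4.05, adjusted p = 3.36e-08). CD44, an adhesion receptor, reached 2305 against 239 (3.28, adjusted p = 9.66e-08), and VIM, vimentin, reached 131613 against 24022 (2.52, adjusted p = 1.41e-07). MMP2, a matrix protease counted among those that rose, was at 108, 140 and 76.8 at 48 h against 4.63, 17.2 and 7.80 in untreated cells, so treated libraries carried it past the filter.

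In the RAS to ERK cascade list, 15 of 31 rose and 10 fell at 48 h (median 0.05), where 32.3% of all tested genes rose and 33.8% fell, 7 rose and 5 fell at 8 h, and 9 rose and 11 fell at 24 h. KSR1, a scaffold of RAF, MEK and ERK, rose to 2461 at 48 h against 639 in untreated cells (1.96, adjusted p = 6.64e-07), and HRAS fell to 185 against 707 (-1.93, adjusted p = 3.22e-06). RRAS, a RAS relative, rose (2.45, adjusted p = 1.52e-06), as did RASGRP4, a RAS activator (3.55, adjusted p = 2.81e-05). In the JNK and p38 list, 7 of 20 rose and 7 fell at 48 h (median -0.08), 4 rose and 3 fell at 8 h, and 7 rose and 5 fell at 24 h. MAP3K12, a kinase upstream of JNK, rose to 307 against 28.6 (3.40, adjusted p = 3.62e-08), and MAPK8IP3, a JNK scaffold, rose to 3620 against 1078 (1.76, adjusted p = 5.15e-08). MAP3K11, another upstream kinase, fell (-1.77, adjusted p = 3.85e-07), and so did the scaffold MAPK8IP2 (-2.12, adjusted p = 0.000321).

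Among the relays between ERK and promoters, 5 of 18 rose and 6 fell at 48 h (median -0.20), 3 rose and 2 fell at 8 h, and 4 rose and 4 fell at 24 h. SRF, the CArG box factor, had 684.5 normalized counts at 48 h against 1978 in untreated cells (-1.53, adjusted p = 1.23e-08) and did not pass at 8 h (-0.07, adjusted p = 0.64) or 24 h (-0.21, adjusted p = 0.0663). MRTFB, a coactivator of SRF, rose to 2892 against 674 (2.10, adjusted p = 7.94e-09). FBXW7, a ubiquitin ligase subunit that targets c-Jun, rose at 48 h (1.39, adjusted p = 9.17e-07), and RPS6KA5, a kinase that phosphorylates histone H3 downstream of ERK and p38, rose as well (1.46, adjusted p = 0.00148).

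**Figure D5:**
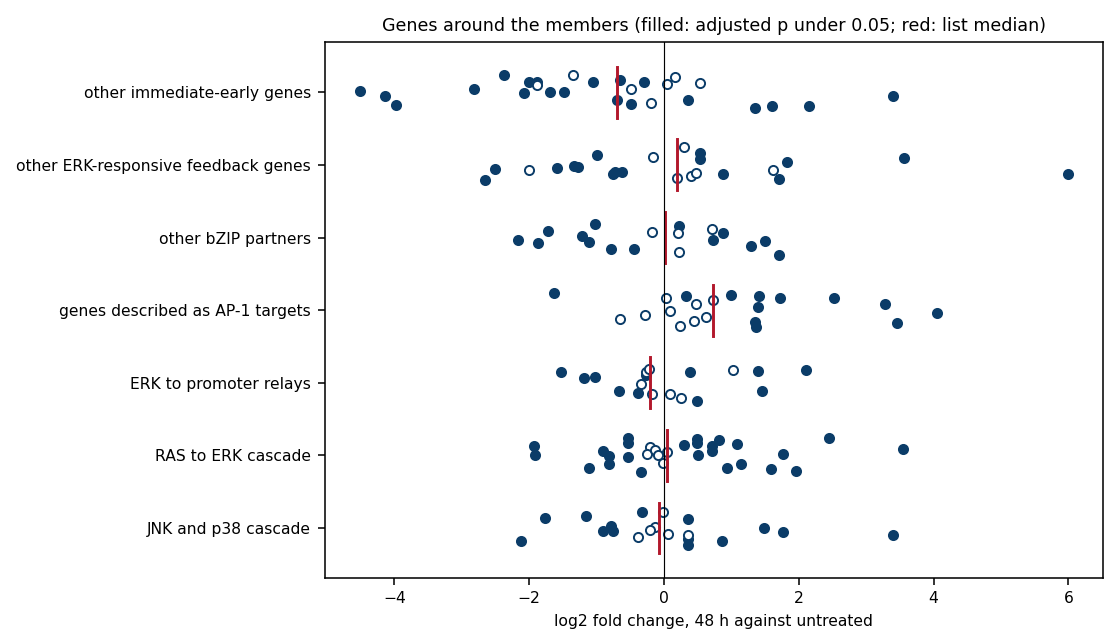
Log2 fold change at 48 h against untreated cells (horizontal axis) for the tested genes of 7 lists around the members. Filled points passed an adjusted p of 0.05, open points did not, red lines are list medians, and the vertical scatter within a list has no meaning. The median of other immediate-early genes is -0.70 and that of genes described as AP-1 targets is 0.73.

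The genes with the most similar course over the 12 libraries were found by Pearson's r of log2 values among genes with a mean of at least 50. These values describe libraries that share their treatment groups and depth, and carry no test. EGR1 was most like IER2 (r = 0.974) and CHPF (0.97). IER2, another immediate-early gene, was at 1477, 1731 and 1814 normalized counts at 48 h against 5803, 6438 and 6303 in untreated cells. FOSL1 was most like ISG20L2 and PLAGL2 (both r = 0.996), JUNB most like LYSMD4 (0.990) and TNFRSF1B (0.988), and FOS most like RHBDD1 and the unnamed ENSG00000236393 (both 0.972). JUN was most like NRDC (0.991) and MLXIP (0.990). MLXIP, a glucose-sensing transcription factor, was at 15755 at 48 h against 4726 in untreated cells. SPRY4 was most like EEF1AKMT3 and TNFRSF1A (both 0.972), SPRY2 most like LMO4 (0.951) and CYTH4 (0.933), JUND most like TTC14 (0.936) and UBE2W (0.935), FOSL2 most like ZNF641 (0.944) and SRPRB (0.884), and DUSP6 most like ST3GAL5 (0.882) and NEK5 (0.877). Among the members, r was 0.970 between FOSL1 and JUNB and 0.950 between FOS and JUNB. It was 0.931 between FOS and EGR1, and -0.941 between JUN and FOSL1. Those pairs had the largest absolute r among the members. Some other pairs had little relation, with r of 0.0233 between JUN and SPRY2, 0.0931 between JUN and DUSP6, and -0.0437 between JUND and SPRY4.

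Transcripts that overlap a member on the other strand were looked up by position. The library was strand-specific, but the labels do not say how strand entered the counting, so reads of such pairs may not be fully separated. HOOK2 spans JUNB on the opposite strand and rose at 8 h (0.53, adjusted p = 0.0224), 24 h (0.59, adjusted p = 0.00709) and 48 h (0.99, adjusted p = 8.37e-05), opposite in sign to JUNB. SPRY4-AS1 overlaps the 5′ part of SPRY4 and was at 48.1, 17.9 and 30.3 normalized counts at 48 h, against 8.81, 3.41 and 8.44 in untreated cells. It was at 22.3, 27.2 and 16.9 at 8 h and at 32.03, 35.7 and 31.6 at 24 h. All untreated values lay below 10, so it passed the filter only through treated libraries, and no test is given. FOSL2-AS1 passed no comparison with untreated cells (-1.56 at 48 h, adjusted p = 0.102). LINC01135, which starts upstream of JUN on the other strand, was at 0 in 11 of 12 libraries, all 3 of the 48 h libraries included.

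The scaling of libraries bears on the smaller changes. With equal totals, the median log2 fold change of all tested genes moved to 0.14, 0.20 and -0.24 at 8, 24 and 48 h, where it was -0.01, 0.02 and -0.05 with the deposited scaling, and the calls of all genes shifted with it. The members called at 8 h were 3 higher and 1 lower, where 18.7% of all genes were higher and 7.02% lower. At 24 h they were 5 higher and 1 lower (30.9% and 17.2% of all genes), and at 48 h 1 higher and 6 lower (26.9% and 39.9%). The directions at 48 h of JUN (3.18), FOSL1 (-3.66), EGR1 (-3.13), FOS (-2.38) and JUNB (-2.37) held in that setting.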

How the data were processed

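RNA of 12 K-562 libraries, 4 groups with 3 biological replicates each, was sequenced after strand-specific library construction. Per the submitters' processing notes, cutadapt, Salmon and DESeq2 were used with build GRCh38, with no versions. For the annotation used, the sources here give nothing. The authors deposited a signal for 51112 identifiers, namely counts normalized with DESeq2. Within a library, 44.8 to 69.7% of low values lay within 0.1 of a whole multiple of 1 step, so whole reads were not recovered, the depth in reads is unknown and methods for counts were not run.

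Symbols came from a gene name table (50026 identifiers) or GENCODE release 29 (267), and 819 had none. Logarithms (log2) were taken of value plus 1, which understates changes of low genes such as DUSP6 and FOS. Genes with at least 10 in at least 3 libraries were fitted with limma 3.58.1 (R 4.3.3, trended prior, 5.08 prior degrees of freedom, 1 fit over all groups, no replicate block). Tests were two-sided and adjusted by Benjamini-Hochberg over 15424 genes. Replicates are biological by their labels, and p-values measure the spread between them. The fit was also run on simulated data in which few genes changed, and in 1 treated group only. Far larger shares of genes were called in the real data, so that run does not vouch for the calls here.

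All members are named. From each further list up to 4 called genes with a mean of at least 50 and the largest change, and per member the 2 most similar genes, are named. FOSB and the overlapping or upstream transcripts were added by name or position. The members and lists were chosen with earlier results of these data known. Alternatives were adding 0.5 or 8, other filters and scalings, a robust prior, a replicate block, fitting only the compared groups, and leaving out each library.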

Additional observations from a re-analysis of the deposited data

How the results depend on the processing

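Over 22 alternative settings, all calls of JUN, FOSL1, FOS, JUNB, EGR1 and SPRY4 at 48 h, against untreated cells and against 24 h, kept their direction and passed, as did those of SPRY2 at 8 h and 24 h, JUNB at 8 h, and FOSL1 and SPRY4 at 24 h. No called member changed sign. Leaving out 1 library at a time gave 2 to 6 members called at 8 h (2936 to 4673 of all genes), 4 to 6 at 24 h (6361 to 7642), 6 to 9 at 48 h (9401 to 10242), 0 to 3 between 8 h and 24 h, and 6 between 24 h and 48 h (7000 to 8038). The lowest count at 8 h, 2, came without untreated replicate 2. Between 8 h and 24 h none was called without 8 h replicate 1 or 24 h replicate 1, and 1 without any other single untreated, 8 h or 24 h library. Between 8 h and 24 h, 1 member was called with no filter and 1 with the compared groups alone, against 3. Of all genes tested, 7.72% were called with no filter and 15.9% with the compared groups alone, against 18.1%. Without single libraries, 1396 to 3151 of all genes were called in that comparison, against 2798, with 1396 without 8 h replicate 3, 1416 without 24 h replicate 1 and 1624 without 8 h replicate 1. The cause was not tested. Deviations of same-numbered libraries from their group means had r of -0.07 to 0.14 over 18 pairs, over 0.1 in 2. With 3 libraries per group, these values cannot settle whether the numbers pair the libraries. The main fit therefore took no pairing, and a replicate block was run as an alternative. With the replicate block, 6, 5, 8, 2 and 6 members were called in the 5 comparisons, against 6, 5, 8, 3 and 6. With the block 4554, 7515, 10286, 2975 and 8154 of all genes were called, against 4347, 7343, 10207, 2798 and 8058. The depth in reads is unknown, so no limit of detection is given.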
